A study of Saccharomyces cerevisiae with 2 samples.

Results

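The 10 genes described here encode the proteins that budding yeast needs to make meiotic DNA double-strand breaks (DSBs): SPO11, SKI8, REC102, REC104, REC114, MEI4, MER2 (YJR021C), MRE11, RAD50 and XRS2. They were chosen by name from the known break machinery, and all 10 were found among the 6698 open reading frames (ORFs) of the deposited ORF table. RNA bound to Cbc2, a subunit of the nuclear cap binding complex, was sequenced after 6 h of meiosis from trf4Δ cells and from wild-type cells, with 1 library per genotype. Trf4 is the poly(A) polymerase of the TRAMP complex, which marks RNA for the nuclear exosome. Cells were diploids (MATa/MATα) of the SK1 background, a strain used because it enters meiosis synchronously. The trf4Δ diploid was homozygous for trf4::NatMX6. Both genotypes, wild type included, carried CBC2-TAP on both chromosome copies, together with ho::LYS2 and the lys2, ura3, leu2::hisG, his3::hisG and trp1::hisG markers. The acetate pre-cultures of the 2 genotypes were started at different cell densities, and the libraries ran on separate sequencing lanes, so lane, culture and genotype cannot be told apart. No value below has a replicate check, and no p-value was computed. The 95% intervals given are exact binomial for a gene or stretch and a normal approximation for the introns. They cover counting error at most. Reads at the borders of 100 bp segments appear to be counted in both segments. Intervals for sums over several segments treat these as separate reads and are too narrow even for counting error. Those for the introns ignore reads shared by neighbouring segments.

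As background, meiotic recombination starts when Spo11, a relative of a topoisomerase subunit, cuts DNA through a covalent link to the broken end. Spo11 works in a core complex with Ski8, Rec102 and Rec104. Rec114, Mei4 and Mer2 form a second group of partners on the chromosome axis that is needed for the core to act. The Mre11-Rad50-Xrs2 complex is required in budding yeast both to form the breaks and to process their ends. SPO11, REC102, REC104, REC114 and MEI4 are transcribed in meiosis, and MER2 RNA yields its protein only after a splicing step that depends on the meiotic factor Mer1. SKI8 and the 3 genes of the Mre11 complex also act in growing cells: Ski8 belongs to the cytoplasmic Ski complex, which feeds RNA to the cytoplasmic exosome, and the Mre11 complex repairs DNA. Cryptic unstable transcripts (CUTs) are short RNAs of RNA polymerase II that TRAMP and the nuclear exosome normally remove.

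The counts over 100 bp segments summed to 29687088 in trf4Δ, against 22092372 in wild type. Reads at segment borders appear to be counted in both segments, so these sums exceed the mapped reads that the study gives. The small nuclear RNA U1 took 21.8% of the segment counts in trf4Δ, against 15.5% in wild type. The ORF counts summed to 10951658 in trf4Δ, against 11628987 in wild type, so ORFs took a smaller share in trf4Δ. Segment and ORF counts were made on different bases, so only the direction of this change in share can be read. Wild-type reads are given below multiplied by 1.34, which brings the 2 totals level, and log2 differences are trf4Δ minus wild type. On this scale the median of the 6246 ORFs with a log2 read count above 6 in either library was -0.97, so the typical ORF had fewer reads in trf4Δ, and each gene has to be read against that median. The deleted gene itself, TRF4 (PAP2 in the table), had 1 read in trf4Δ, against 465 in wild type, at least 155-fold lower when the trf4Δ count is set to 3. CBC2, the tagged gene, had 1427 reads in trf4Δ, against 3347 in wild type (-1.23). Early meiotic genes were read in both cultures. DMC1, the meiotic strand-exchange protein, stood at 8641 reads per kb in trf4Δ, against 20485 in wild type, and REC8, the meiotic cohesin, at 7897 and 10806 reads per kb in trf4Δ and wild type. HOP1, IME2 and ZIP1, also early meiotic genes, stood at 988, 1711 and 341 in trf4Δ, against 2586, 4305 and 981 in wild type. The galactose genes GAL1 and GAL10 stood at 86.3 and 352 reads per kb in trf4Δ, against 158 and 1473 in wild type. GAL10 thus lay above ZIP1 in both libraries. Fewer meiotic cells in a culture, less RNA per cell and a smaller share of the library on ORFs cannot be told apart in such data.

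All 10 genes passed the read minimum. Their log2 differences ranged from -1.95 (SKI8) to 0.51 (RAD50) with a median of -0.85, against -0.97 for all ORFs, and 6 of the 10 lay above the ORF median. SPO11, MEI4 and RAD50 were higher in trf4Δ, 3 of 10, while 28% of all ORFs were. SKI8, REC104, MER2 and MRE11 were more than 2-fold lower in trf4Δ, 4 of 10, while 49% of all ORFs were. None of the 10 differed by more than 4-fold, the limit the study uses for CUTs: 10.6% of all ORFs were more than 4-fold lower and 8.09% more than 4-fold higher. The signs depend on how the libraries are scaled. With the median ORF set to 0 the 10 genes had a median of 0.13, and 6 of them were higher in trf4Δ. On that scale SPO11, MEI4 and RAD50 were more than 2-fold higher, 3 of 10, while 27.2% of all ORFs were. No gene of the 10 was then more than 2-fold lower, while 11.6% of all ORFs were, and none differed by more than 4-fold, while 15.3% did. The median of the core genes (SPO11, SKI8, REC102, REC104) was -0.90, that of REC114, MEI4 and MER2 was -0.25, and that of the Mre11 complex was -0.93. The 6 genes whose proteins are made in meiosis only (MER2 among them) had a median of -0.51, and the 4 that also act in growing cells had one of -1.02. This gap was smaller by the segments inside the genes, as given below.

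The levels of the genes, as reads per kb of ORF, spanned 53.1-fold in trf4Δ and 56.8-fold in wild type. MER2 was the highest in both libraries, at 4016 reads per kb in trf4Δ, against 8158 in wild type, and REC104 and REC114 came next in both. The Mre11 complex was the lowest in both, from XRS2 at 75.6 reads per kb in trf4Δ, against 144 in wild type to RAD50 at 243 in trf4Δ and MRE11 at 307 in wild type. XRS2 lay above 3.95% of ORFs in trf4Δ and above 5.51% in wild type, whereas MER2 lay above 88.4% in trf4Δ, against 92.5% in wild type. Between the extremes the order differed. SKI8 ranked 7 in trf4Δ, against 4 in wild type, and SPO11 ranked 4 in trf4Δ, against 6 in wild type. The SPO11 ranks depend on the segment at its start. By the mean of inner segments SPO11 fell below MEI4 in trf4Δ (1936 against 2483) and rose above REC102 in wild type (2228 against 2224). By that measure RAD50 (177) also fell below MRE11 (181) in trf4Δ. Without replicates the spread of a level is not known, so neighbours in this order are not separated by any test.

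**Figure D1:**
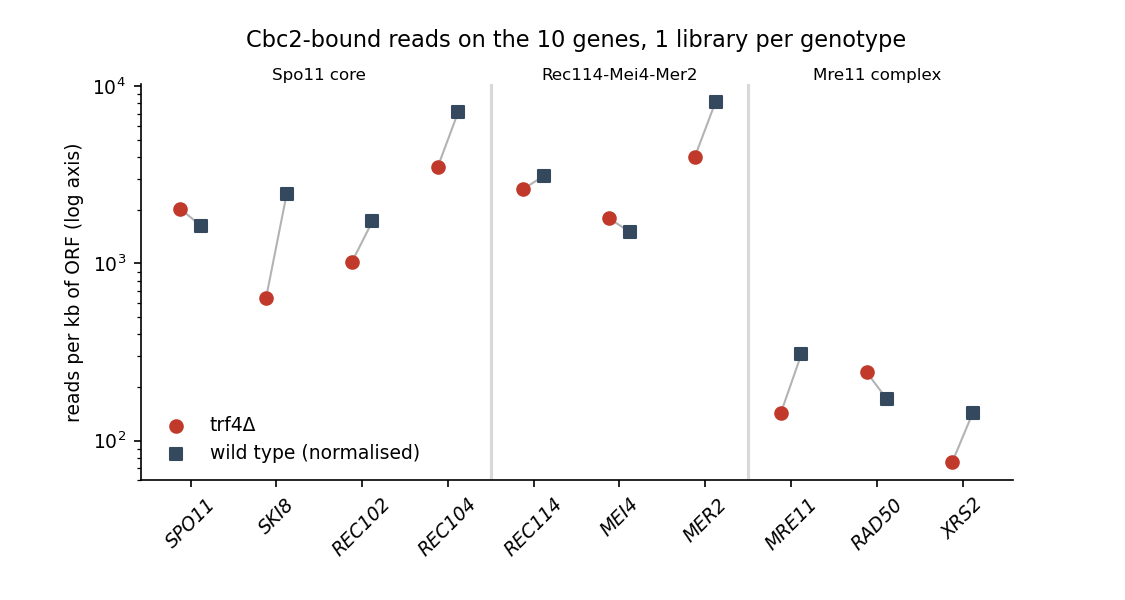
Reads per kb of ORF (log axis) of the 10 genes in trf4Δ (circles) and in wild type after scaling (squares), 1 library each, grouped by protein complex. SKI8 had the widest gap, 637 in trf4Δ, against 2461 in wild type, and the wild-type point is the lower one for SPO11, MEI4 and RAD50 alone.

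A whole-ORF count can be carried by a small part of the ORF, so the 100 bp segments that lie wholly inside each gene were compared as well. By the median segment, 1 of the 10 genes, MEI4, was higher in trf4Δ (0.09), while 17.1% of ORFs with 3 or more such segments were. The median of the 10 segment medians was -0.87, against -1.17 for all such ORFs. For the 6 genes of meiosis-only proteins it was -0.85, and for the 4 that also act in growing cells -1.10. For REC114, MEI4 and MER2 it was -0.43, for the core genes -0.92 and for the Mre11 complex -0.90. SPO11 and RAD50 had whole-ORF values 1.16 and 0.57 above their own segment medians, and 2 of 10 genes with such an excess over 0.5 compares with 22.6% of ORFs. The other 8 genes had whole-ORF values within 0.19 of their segment medians.

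**Figure D2:**
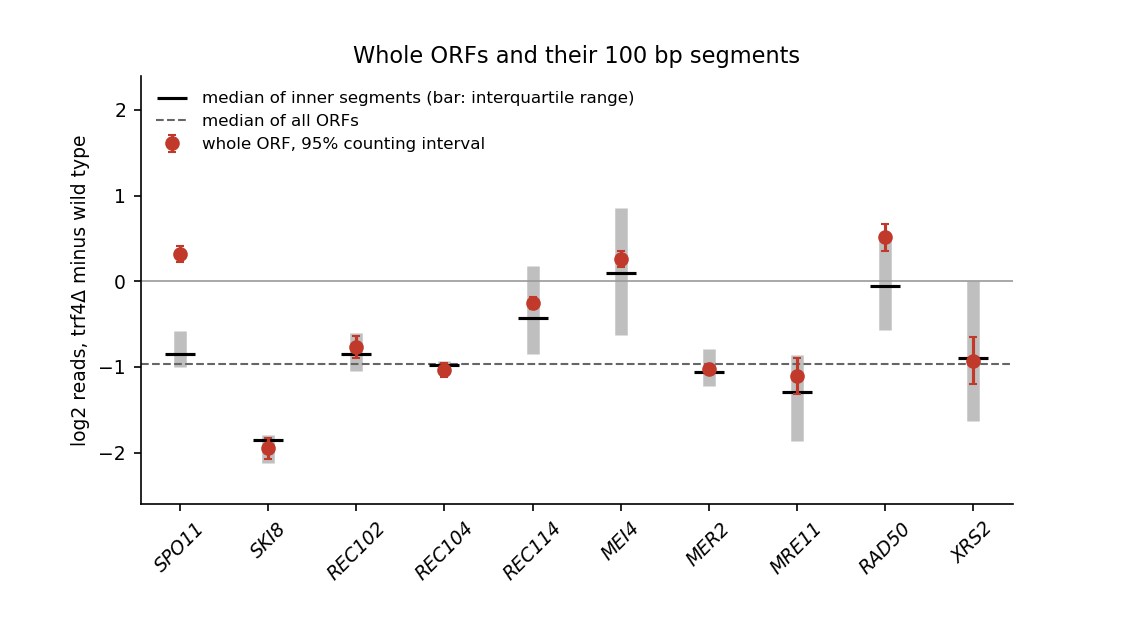
Log2 difference in reads, trf4Δ minus wild type, for each whole ORF (circles, 95% counting interval) and for its 100 bp inner segments (black dash, median; grey bar, interquartile range of the segments). The dashed line is the median of all ORFs at -0.97. SPO11 at 0.31 stands above its grey bar, whose dash is at -0.85, and SKI8 is the lowest on both measures.

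SPO11 (YHL022C, chrVIII:62959-64155, minus strand), which encodes the catalytic subunit, had 2433 reads in trf4Δ, against 1957 in wild type, a log2 difference of 0.31 (0.22 to 0.41). The difference was not spread along the gene. Each ORF was divided into 3 equal parts, called 5′, middle and 3′ here, and the segments centred in each part were summed. These sums run above the ORF count, since segments at an end of the ORF reach past it and reads at a border appear to be counted in both segments. The 5′ part of SPO11 had 3044 reads in trf4Δ, against 1536 in wild type (0.99), the middle part 351 and 650 in trf4Δ and wild type (-0.89), and the 3′ part 336 and 660 in trf4Δ and wild type (-0.97). The 5′ part thus held 81.6% of the gene's segment reads in trf4Δ, against 54.0% in wild type. The segment with the start codon, chrVIII:64101-64200, was the highest of the gene in trf4Δ with 1601 reads, against 395 in wild type. The 100 bp just upstream had 562 reads in trf4Δ, against 84.6 in wild type, and the next 100 bp had 60 in trf4Δ, against 0 in wild type. Of the 11 segments wholly inside the ORF, the one next to the start had 1018 reads in trf4Δ, against 622 in wild type (0.71), and the other 10 were lower in trf4Δ. Summed over all 11, the log2 difference was -0.20.

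A CUT as the study defines it covered the start of SPO11: chrVIII:64101-64500, 400 bp, with 2416 reads in trf4Δ, against 504 in wild type, 4.80-fold higher. It reached from the first bases of SPO11 across the gap to the end of FMP12, a mitochondrial protein gene, whose whole ORF had 1527 reads in trf4Δ, against 1524 in wild type. Without the segment that the CUT shares with SPO11, the gene's log2 difference was -0.21 (-0.30 to -0.12). No source states that strand was used in counting, so reads of SPO11 mRNA and of an RNA on the other strand cannot be told apart here.

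SKI8 (YGL213C, chrVII:90058-91251, minus strand) had 761 reads in trf4Δ, against 2938 in wild type, 3.86-fold lower in trf4Δ, with a log2 difference of -1.95 (-2.07 to -1.83). This was the lowest value of the 10, and 12.5% of all ORFs were at or below it. All 11 inner segments were lower in trf4Δ, 5 of them by more than 4-fold, and the 5′, middle and 3′ parts of the ORF lay close together at -1.86, -1.99 and -2.05. The highest segment, at the start of the gene, had 161 reads in trf4Δ, against 653 in wild type. An annotated ORF on the opposite strand, YGL214W, overlaps the end of SKI8 and had 211 reads in trf4Δ, against 826 in wild type (-1.97), which without strand may be the same reads. SKI8 thus had a similar profile in both libraries at different heights.

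REC102 (YLR329W, chrXII:786442-787333, plus strand), which with Rec104 bridges Spo11 to its other partners, had 907 reads in trf4Δ, against 1541 in wild type (-0.76, -0.89 to -0.64). Of its 8 inner segments 7 were lower in trf4Δ, and the exception was the segment that holds most of its intron. Before the gene, the 4 segments of chrXII:785901-786300 had 803 reads in trf4Δ, against 337 in wild type (1.25). These lie over the end of NMA1, a NAD biosynthesis gene, and the gap behind it, and NMA1 as a whole had 1108 reads in trf4Δ, against 582 in wild type (0.93). The highest of them had 324 reads in trf4Δ, more than any segment of REC102 itself in that library (282), whereas in wild type it had 124 against 407 for the highest segment of the gene.

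REC104 (YHR157W, chrVIII:412910-413458, plus strand) had 1915 reads in trf4Δ, against 3929 in wild type (-1.04, -1.12 to -0.95). Its 4 inner segments were all lower in trf4Δ and close to each other, from -1.23 to -0.91. The segments ranged from 381 to 540 reads in trf4Δ and from 773 to 1037 in wild type. REC104 was thus even along its length, and relative to the ORF median it stood at -0.07. Before the gene, chrVIII:412501-412800 had 910 reads in trf4Δ, against 515 in wild type (0.82).

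REC114 (YMR133W, chrXIII:536206-537608, plus strand), whose protein binds Mei4, had 3690 reads in trf4Δ, against 4389 in wild type (-0.25, -0.32 to -0.18). It was split the other way round from SPO11. The 5′ part had 1653 reads in trf4Δ, against 3203 in wild type (-0.95), the middle part 1160 and 1653 in trf4Δ and wild type (-0.51), and the 3′ part 2247 and 1244 in trf4Δ and wild type (0.85). The 3′ part held 44.4% of the segment reads in trf4Δ, against 20.4% in wild type. The 4 segments of chrXIII:537201-537600, which end over the intron, had 1981 reads in trf4Δ, against 957 in wild type, and the one at chrXIII:537401-537500 had 616 in trf4Δ, against 168 in wild type. The segment with the start codon had 523 reads in trf4Δ, against 1079 in wild type.

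The 500 bp before REC114 had 1151 reads in trf4Δ, against 33.6 in wild type (5.10, 4.53 to 5.73), where wild type rested on 25 unscaled reads. They fell off towards REC114: the segment at chrXIII:535801-535900 had 609 reads in trf4Δ, against 9.41 in wild type, and the last one before the start had 42 in trf4Δ, against 16.1 in wild type. All but the last of these segments belong to a CUT of 1100 bp, chrXIII:535001-536100, with 5154 reads in trf4Δ, against 845 in wild type. Its other end lies over JLP2, which runs on the opposite strand away from REC114 and had 2984 reads in trf4Δ, against 656 in wild type (2.18); JLP2 lies more than 500 bp away and was named after its values were seen. No segment of the REC114 ORF was part of this CUT.

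MEI4 (YER044C-A, chrV:238459-239773, minus strand) had 2367 reads in trf4Δ, against 1975 in wild type (0.26, 0.17 to 0.36). It was the only one of the 10 with a median segment above 0, and 7 of its 12 inner segments were higher in trf4Δ. The 5′ part had 1149 reads in trf4Δ, against 1412 in wild type (-0.30), the middle part 620 and 602 in trf4Δ and wild type (0.04), and the 3′ part 1430 and 645 in trf4Δ and wild type (1.15). The 6 segments of chrV:238501-239100 had 1882 reads in trf4Δ, against 920 in wild type, and the highest of them had 639 in trf4Δ, against 177 in wild type. Just before that stretch, the 5 segments of chrV:239101-239600 had 731 reads in trf4Δ, against 1196 in wild type (-0.71). Both stretches were bounded where the sign of the segments changes, so that their values are descriptions. The 500 bp before MEI4 had 378 reads in trf4Δ, against 148 in wild type (1.35, 1.04 to 1.67), with 1 of 5 segments more than 4-fold higher. The 7 segments over and before its start, chrV:239601-240300, had 964 reads in trf4Δ, against 691 in wild type (0.48). The highest wild-type segment of the MEI4 window lay behind the gene, over ERG28, with 317 reads in trf4Δ, against 547 in wild type. Within the ORF, REC114 and MEI4 both had more trf4Δ reads in the 3′ part. The share of all ORFs with such a 3′ part was not computed, so the likeness of these genes is a description. On this scale no segment inside the REC114 or MEI4 ORF passed 4-fold, and neither ORF held a CUT. Under a 2-fold limit, and with the median segment set to 0, a CUT did overlap the MEI4 ORF. One overlapped 28.6% and 29.3% of all ORFs under these settings.

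MER2 (YJR021C, chrX:468548-469572, minus strand) had 4116 reads in trf4Δ, against 8361 in wild type (-1.02, -1.08 to -0.97), and relative to the ORF median it stood at -0.05. Of its 9 inner segments 8 were lower in trf4Δ, with its 5′, middle and 3′ parts at -1.04, -0.89 and -1.13. The exception was again the segment with most of the intron.

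MRE11 (YMR224C, chrXIII:718574-720652, minus strand), the nuclease of its complex, had 296 reads in trf4Δ, against 637 in wild type (-1.11, -1.32 to -0.89). All 20 inner segments were lower in trf4Δ, 4 of them by more than 4-fold. The 5′ part had 234 reads in trf4Δ, against 333 in wild type (-0.51), the middle part 70 and 223 in trf4Δ and wild type (-1.67), and the 3′ part 111 and 321 in trf4Δ and wild type (-1.53). The highest segment of the MRE11 window lay before the gene, over MRPL44, with 309 reads in trf4Δ, against 658 in wild type. XRS2 (YDR369C, chrIV:1215008-1217572, minus strand), whose protein carries the complex into the nucleus, had 194 reads in trf4Δ, against 368 in wild type (-0.93, -1.20 to -0.65). Its inner segments had at most 17 reads in trf4Δ, against 48.4 in wild type, so that single segments say little at this depth. Of the 24, 18 were lower in trf4Δ. Its 5′, middle and 3′ parts were at -1.22, -1.39 and -0.28. The highest segment of the XRS2 window lay behind the gene, over the end of YPR1, with 134 reads in trf4Δ, against 434 in wild type.

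RAD50 (YNL250W, chrXIV:175411-179349, plus strand), the ATPase of the complex, had 959 reads in trf4Δ, against 672 in wild type (0.51, 0.35 to 0.67), the highest value of the 10. The sign of this value rested on the start of the gene. The segment chrXIV:175401-175500, which holds it, had 655 reads in trf4Δ, against 112 in wild type (2.55). The following segment had 110 reads in trf4Δ, against 132 in wild type, and of the 38 inner segments 23 were lower in trf4Δ. Without the segment at the start the gene's log2 difference was -0.24 (-0.40 to -0.08), below 0 and above the ORF median of -0.97. The middle part had 122 reads in trf4Δ, against 118 in wild type (0.05), and the 3′ part 205 and 214 in trf4Δ and wild type (-0.06), so that the body of RAD50 also lay above the ORF median.

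The reads at the RAD50 start adjoin a very high peak before the gene. The 500 bp upstream had 107031 reads in trf4Δ, against 1600 in wild type (6.06, 5.98 to 6.15), with 30563 reads in trf4Δ, against 512 in wild type in the highest segment. In the 5 upstream segments towards RAD50 the trf4Δ library had 26110, 30563, 23366, 20476 and 6516 reads, against 466, 512, 372, 204 and 45.7 in wild type. The study's steps annotate this as one CUT of 1500 bp, chrXIV:174001-175500, with 204457 reads in trf4Δ, against 16069 in wild type, 12.7-fold higher. A segment with 2 reads in trf4Δ, against 12.1 in wild type, chrXIV:174701-174800, divides it. The side towards RAD50 had 107937 reads in trf4Δ, against 1753 in wild type (5.94), and the side towards NRD1 had 96518 and 14304 in trf4Δ and wild type (2.75). NRD1, which runs away from RAD50 on the opposite strand, encodes an RNA-binding subunit of the complex that ends short transcripts and is known to limit its own RNA by early termination. Its ORF had 22619 reads in trf4Δ, against 6012 in wild type (1.91); it lies more than 500 bp from RAD50 and was named after its values were seen.

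**Figure D3:**
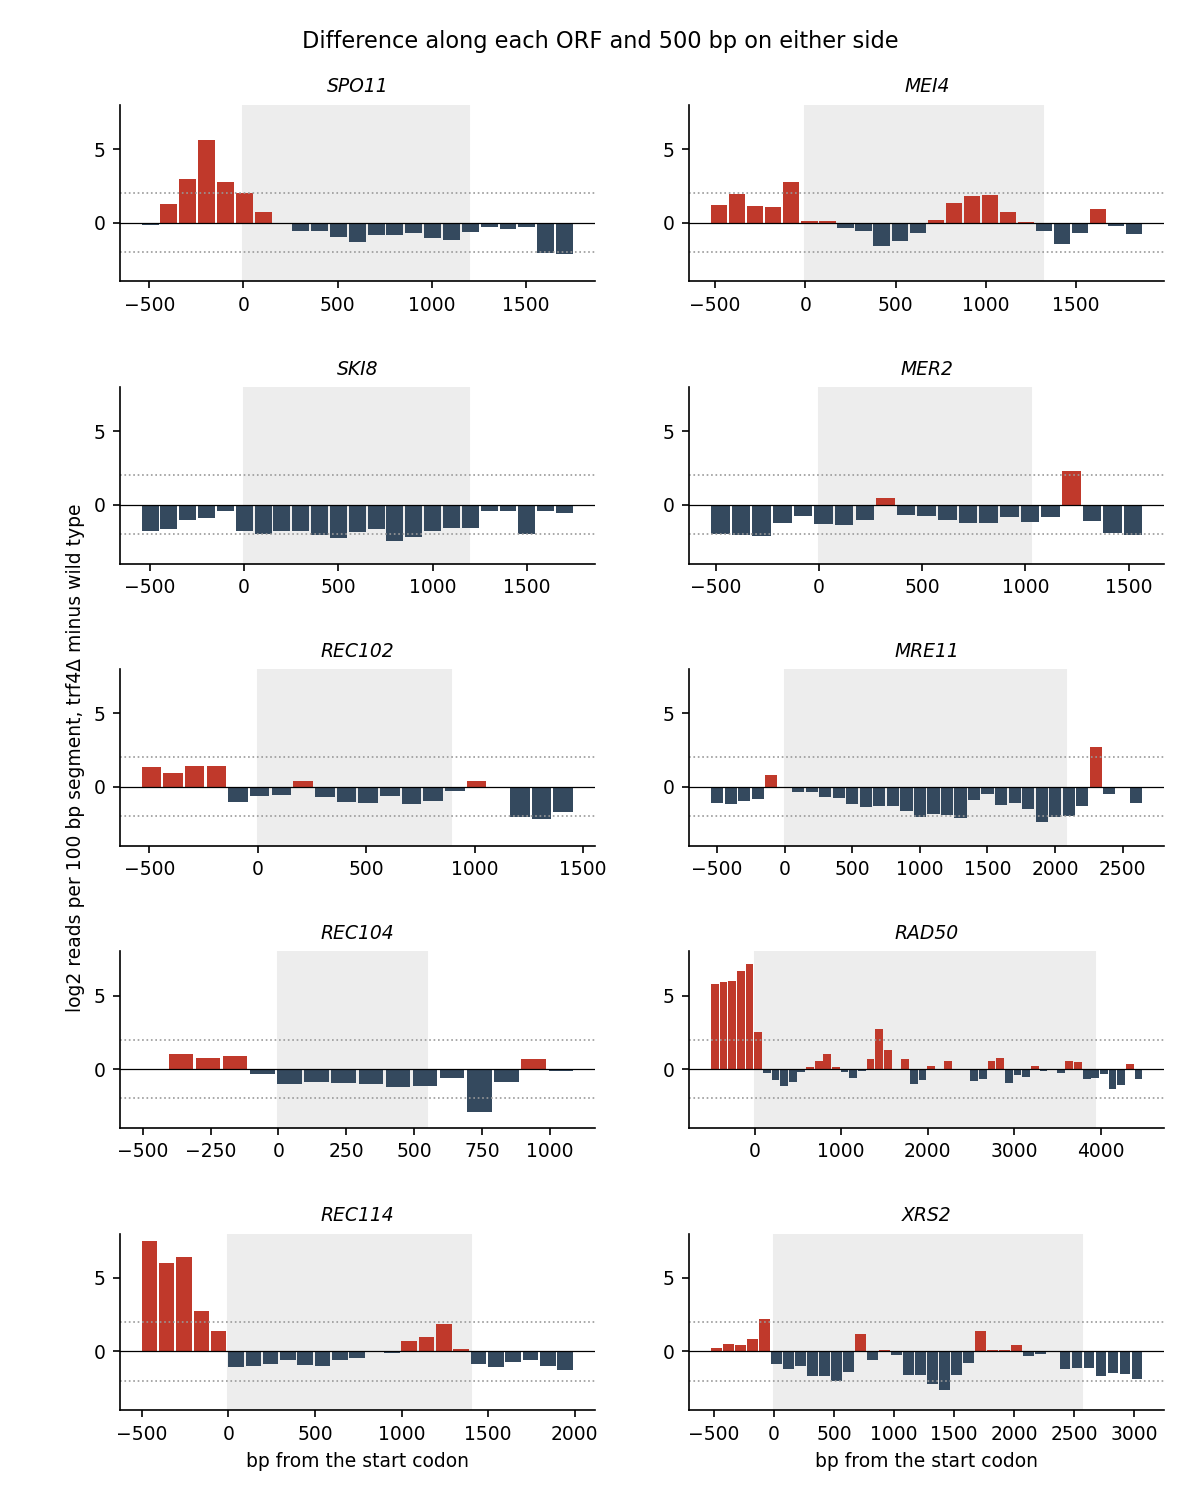
Log2 difference in reads per 100 bp segment, trf4Δ minus wild type, along each ORF (shaded) and 500 bp on both sides, against distance from the start codon in bp; dotted lines mark 4-fold, and a library without reads counts as 0.9. Red bars (higher in trf4Δ) stand highest before the start of SPO11, REC114 and RAD50 and also occur in the 3′ part of REC114 and MEI4, while SKI8 is blue throughout; bars of XRS2, MRE11 and the RAD50 body rest on few reads.

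In all, 2 of the 10 genes, SPO11 and RAD50, had a CUT that overlapped the ORF, while 19.6% of all ORFs did. With the 500 bp on either side included, it was 3 of 10, REC114 added, while 41.1% of all ORFs had one. Among all ORFs tested, the 1227 with a CUT in the ORF had a median log2 difference of 1.63, the 1337 with a CUT in the 500 bp flanks only had one of -1.16, and the 3682 with none had one of -1.28. The 7 break genes with no CUT in ORF or flanks had a median of -1.02. Under a limit of more than 2-fold in place of 4-fold, REC102 and MEI4 also had a CUT in the window, 5 of 10 in all, while 54% of all ORFs had one. With the median segment set to 0 the same 5 genes had one, while 54.7% of all ORFs did. Under more than 8-fold no CUT overlapped any of the 10 ORFs, while one overlapped 11% of all ORFs. At 4-fold, each of the 2 overlaps was 1 segment at the start of the gene. That of SPO11 stood at 2.02 (1.84 to 2.20), an interval that spans the 4-fold limit.

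**Figure D4:**
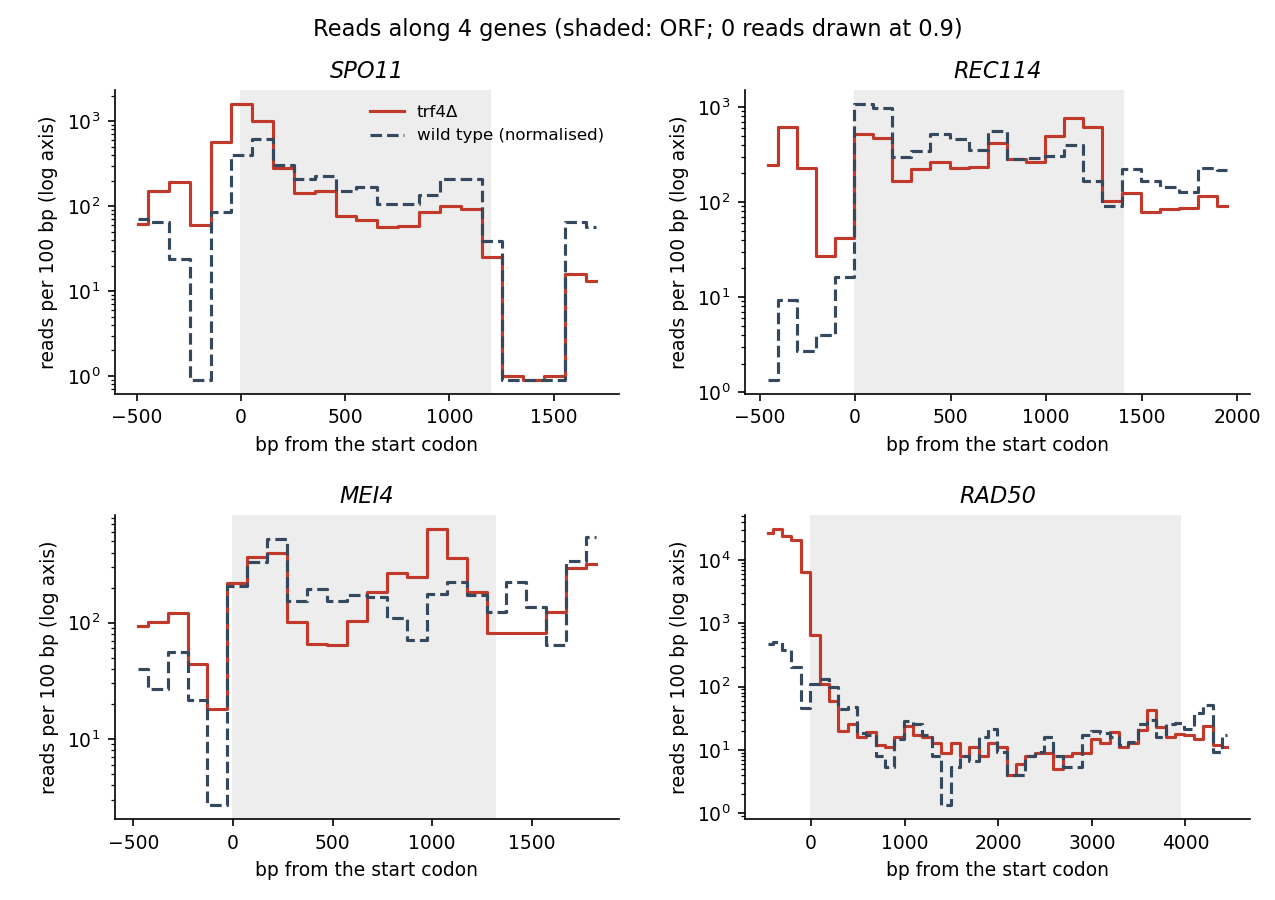
Reads per 100 bp segment (log axis) along SPO11, REC114, MEI4 and RAD50 in trf4Δ (solid) and wild type after scaling (dashed), against distance from the start codon in bp, with the ORF shaded. At RAD50 the upstream peak reaches 30563 reads in trf4Δ, against 512 in wild type and ends at the start of the ORF; at REC114 and MEI4 the lines cross within the ORF.

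Of the 10 genes, 4 have an intron in the RefSeq annotation of the R64 reference genome: MEI4, MER2, REC102 and REC114. The length of all 10 ORFs was the same in R64 and in the deposited table, so intron positions were carried over by position within the ORF. R64 coordinates printed here and with the promoter matches below can lie several bases off the ORF and segment coordinates used elsewhere. The introns are shown here because their ends differ between genes, with the first 6 bases, the branch site TACTAAC and the last 3 bases in capitals (R64, 5′ to 3′ on the gene's strand).
MER2 (chrX:469184-469263, minus strand): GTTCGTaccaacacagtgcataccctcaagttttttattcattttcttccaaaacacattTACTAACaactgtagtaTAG
MEI4 (chrV:239624-239711, minus strand): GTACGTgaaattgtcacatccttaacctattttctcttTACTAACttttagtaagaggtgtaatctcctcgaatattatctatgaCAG
REC102 (chrXII:786616-786712, plus strand): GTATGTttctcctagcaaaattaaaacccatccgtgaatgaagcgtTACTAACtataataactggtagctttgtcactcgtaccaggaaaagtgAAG
REC114 (chrXIII:537449-537564, plus strand): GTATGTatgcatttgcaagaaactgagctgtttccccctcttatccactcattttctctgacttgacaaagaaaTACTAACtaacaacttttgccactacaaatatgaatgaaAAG

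REC102 and REC114 start with GTATGT, the 5′ splice site of 71.5% of the 253 annotated introns (181), whereas MER2 starts with GTTCGT and MEI4 with GTACGT. All 4 hold TACTAAC. MER2 is the textbook case of an intron whose removal needs Mer1, a meiotic splicing factor, together with Nam8 of the U1 particle.

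At MER2 the segment with most of the intron (56 of its 80 bases, with the other 24 in the segment on the 3′ side) had 295 reads in trf4Δ, against 219 in wild type, while the segments on its 5′ and 3′ sides had 365 and 342 reads in trf4Δ and 767 and 558 in wild type. The intron segment stood at 83.5% of the mean of its sides in trf4Δ, against 33.1% in wild type. The log2 difference of the intron segment exceeded that of its sides by 1.34 (1.03 to 1.64). In REC102 the intron segment, with 85 of the 97 intron bases, had 57 reads in trf4Δ, against 43.0 in wild type, 28.6% of its sides in trf4Δ, against 14.3% in wild type, and the excess was 0.99 (0.34 to 1.65). In MEI4 the segment, with 78 of the 88 intron bases, had 367 reads in trf4Δ, against 336 in wild type, 120% of its sides in trf4Δ, against 92.3% in wild type, an excess of 0.37 (0.09 to 0.66). REC114 cannot be read in this way, since its intron is split between 63 bases in the segment taken and 53 in the segment on the 5′ side. The first had 103 reads in trf4Δ, against 91.4 in wild type, and the excess was -0.74 (-1.23 to -0.26), where its 5′ side is the stretch of extra trf4Δ reads described above. In MER2, REC102 and MEI4, 3 of the 4 genes, the intron segment was higher relative to wild type than both of its sides. In MEI4 it stood at 0.13, against 0.08 (-0.22 to 0.39) on its 5′ side, a gap within counting error. An intron segment above both sides was found in 44.4% of the 81 ORFs with a short intron and enough reads. Their median excess was 0.34, and 92.6% of them were below MER2. Without the 4 genes it was 42.9% of 77 ORFs, with a median excess of 0.30. The comparison was made after the profiles had been seen. MER1 had 980 reads in trf4Δ, against 582 in wild type (0.75), and NAM8 had 1990 in trf4Δ, against 1269 in wild type (0.65), though the median inner segment of NAM8 was at -1.70 and a CUT overlaps it. The part of MER1 or NAM8 in the intron reads was not tested.

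**Figure D5:**
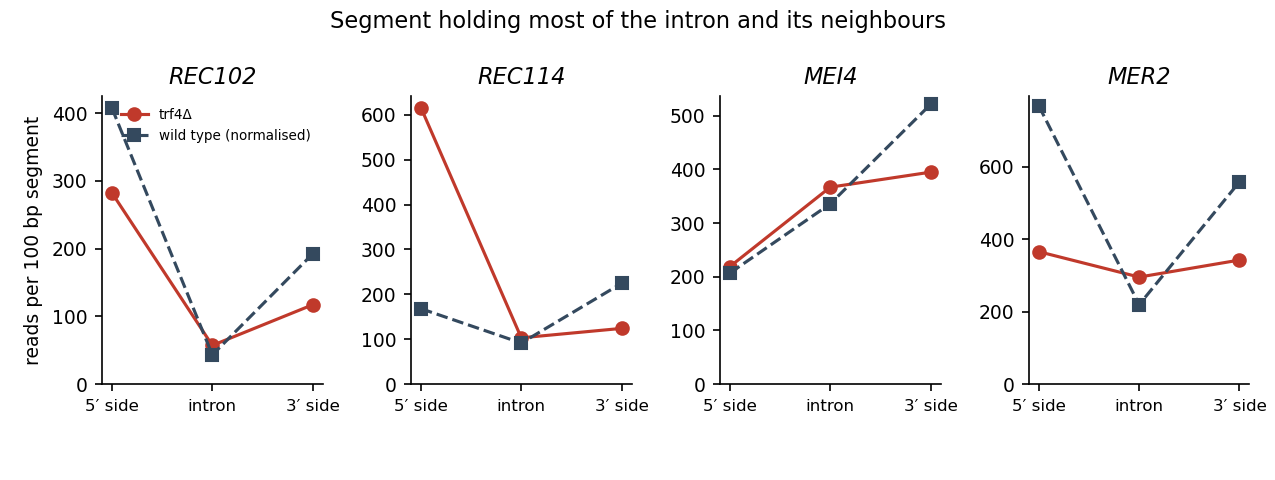
Reads per 100 bp segment for the segment that holds most of the intron and for the segments on its 5′ and 3′ sides, in trf4Δ (circles) and wild type after scaling (squares). In MER2 the dip at the intron is shallow in trf4Δ (365, 295 and 342 reads) and deep in wild type (767, 219 and 558 reads).

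Early meiotic promoters are known for the URS1 element, which the Ume6 regulator binds through the core GGCGGC. On either strand of the RefSeq windows from 250 bases before to 50 bases after the start codon, 3 of the 10 genes held GGCGGC, and 5.14% of 6007 windows did. The longer form TCGGCGGCT was in none of the 10 and in 0.633% of windows. The matches are printed with their surroundings, the core in capitals (R64, 5′ to 3′ on the gene's strand), and lie 90, 85 and 86 bases before the start codon of MEI4, REC104 and REC114.
MEI4 (chrV:239853-239882): tatatattgctgGGCGGCtaaatgtttccg
REC104 (chrVIII:412804-412833): cgcacaatatttGGCGGCtattttccgcta
REC114 (chrXIII:536103-536132): cgttacaaggtgGGCGGCtaacttataaaa

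These 3 genes differed in how their reads were laid out. REC104 was even along its ORF at -1.04, while REC114 and MEI4 had extra trf4Δ reads in the 3′ part of the ORF. A match shows the letters alone, and no match in the other 7 windows says nothing about Ume6.

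The study's RT-PCR primers for 4 of the genes allow the reads to be summed over the 100 bp segments that each pair touches. They are printed because the segments summed decide which value a gene has, with the forward and then the reverse primer, 5′ to 3′. The SPO11 reverse primer carries a phage promoter tail and is left out.
SPO11 forward: ggcaggaattggtcaaagca
REC102 forward: ccggaatcaaccgactcta
REC102 reverse: gcatgcgtatgaagctctct
REC104 forward: gcctgggttaaaacgaacag
REC104 reverse: ccatttgaagcctgtctctca
REC114 forward: cggacccagaatgttaagga
REC114 reverse: cgtagccattggagtgttg

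The SPO11 pair spans positions 38 to 327 of the ORF, counted from the A of the start codon. The segments it touches had 3044 reads in trf4Δ, against 1536 in wild type (0.99). Of these, 1601 and 395 lie in the CUT segment chrVIII:64101-64200, of which the pair covers only the edge. The REC102 pair (positions 115 to 507, across the intron) touches segments with 713 reads in trf4Δ, against 1174 in wild type (-0.72). The REC104 pair (183 to 521) had 2173 and 4474 in trf4Δ and wild type (-1.04), and the REC114 pair (306 to 714) had 1366 and 2226 in trf4Δ and wild type (-0.70). In SPO11 and REC114 these differ from the whole-ORF values of 0.31 and -0.25, while the whole-ORF values of REC102 and REC104 were -0.76 and -1.04. For SPO11 the difference rests on the CUT segment, so the sum is not a value of the stretch between the primers. The study reported that its RT-PCR found no expression defect for key recombination factors in trf4Δ cells. The sums here are of Cbc2-bound RNA from 1 library per genotype, scaled to total reads, so they are another measure than that RT-PCR.

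Other genes of meiotic recombination were taken from lists of known function, and their counts stand beside 72% of all ORFs lower in trf4Δ and the ORF median of -0.97. Of 11 genes of strand exchange 2 were higher and 9 lower (median -0.99), and the highest was RAD55, with 33568 reads in trf4Δ, against 1472 in wild type (4.51). A CUT overlapped both higher genes of that list, RAD55 and MND1 (2.51), the second named after its value was seen. Of 15 genes of the chromosome axis and synapsis 1 was higher and 14 lower (median -1.22), with GMC2 at 1.22 and ECM11 at -1.59, both of which encode proteins of the synaptonemal complex central region. Of 9 genes of end processing and break control 2 were higher and 7 lower (median -1.18), from the nuclease EXO1 at 0.68 to the helicase SGS1 at -1.71. Like SPO11, EXO1 had a whole-ORF value above its median inner segment, which was at -0.67, and a CUT overlapped it. Where along EXO1 the extra reads lie was not examined.

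The partners of Ski8 in RNA decay did not share its value. SKI2, the helicase of the Ski complex, had 556 reads in trf4Δ, against 619 in wild type (-0.15), SKI7, which links the complex to the exosome and was named after its value was seen, had 263 in trf4Δ, against 311 in wild type (-0.24), and SKI3, the scaffold, had 288 in trf4Δ, against 740 in wild type (-1.36). SKI8, at -1.95, was below all 3. Of 6 genes of meiotic entry 1 was higher and 5 lower (median -1.22). The higher one was UME6, with 6701 reads in trf4Δ, against 2714 in wild type (1.30), whose median inner segment was at -1.57 and which a CUT overlapped, and the lowest was NDT80, the regulator of the exit from pachytene, at -1.59. With the median ORF set to 0, all of these values shift up alike, so their order stays as given.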

How the data were processed

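RNA bound to Cbc2-TAP was sequenced from trf4Δ and wild-type cells, 1 library each. Per the study's methods and processing notes, the authors trimmed reads with Trim Galore 0.3.5 and mapped them with Bowtie 0.12.7 to SGD1.01 (unique reads) or an SK1 assembly (non-unique reads at random), and which mapping the tables hold is not given in the sources used here. The authors deposited log2 read counts per ORF, with wild type scaled by 1.34, and unscaled log2 counts per 100 bp segment, with 0.9 for no read. Segment sums exceed ORF counts because reads at segment borders appear to be counted in both segments. The log2 step was undone, segments of the 37S pre-rRNA (139) were left out, wild-type segments were scaled by 1.34 to equal totals, and 1575 CUTs were called by the study's steps: more than 4-fold per segment, starts up to 300 bp apart, at least 300 bp, mean log2 reads above 6. Scripts used Python 3.11.15, numpy 2.4.6, pandas 2.3.3 and scipy 1.17.1, and were tested on simulated data. Since each group has 1 library, no test was made. Differences have exact (Clopper-Pearson) 95% counting intervals, except intron excesses, whose intervals are a normal approximation on the log scale. Both kinds treat every count as a separate read, although reads at segment borders appear to be counted in both segments. The 10 genes, the lists and the rules were chosen with earlier results of these data known. Named were all 10 genes, ORFs within 500 bp that hold a CUT or the highest segment, overlapping ORFs, and the extremes of each list. The lowest gene of one list is not reported here. Alternatives changed the scaling, the way reads per gene are summed, and the limits for CUTs. Sequences and the coordinates printed with them are from RefSeq R64, whose build differs in name from the files' and whose coordinates can differ by several bases.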

Additional observations from a re-analysis of the deposited data

How the results depend on the processing

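The median log2 difference of the 10 genes (-0.85) moved with the scaling of the libraries. It was 0.13 with the median ORF set to 0, -0.73 with U1 left out of the totals, -0.42 without scaling, and 0.45 with totals taken over ORF segments not more than 4-fold higher in trf4Δ. Under these settings 6, 3, 4 and 9 of the 10 genes were higher in trf4Δ, so that the sign of a gene has meaning only beside the ORF median. Summing segments, taking their median, or leaving out SPO11, RAD50 and SKI8, which share reads with a CUT or another ORF, kept the median between -0.93 and -0.87. Summed over inner segments, MEI4 alone was higher. Outside runs of 3 or more higher segments, a rule chosen after seeing the data that itself lowers the values, SPO11 was at -0.72 and RAD50 at -0.33. The number of genes with a CUT in ORF or flanks was 5 in place of 3 under a 2-fold limit and 5 with the median segment set to 0, where 54% and 54.7% of all ORFs had one in place of 41.1%. Under the same 2 settings 3 in place of 2 ORFs overlapped a CUT, MEI4 added, and 28.6% and 29.3% in place of 19.6% of all ORFs. Under an 8-fold limit 0 in place of 2 ORFs overlapped a CUT, and 11% in place of 19.6% of all ORFs. With the flanks included it was then 2 in place of 3, and 25.7% in place of 41.1% of all ORFs. Other flanks, sizes, noise limits and joining left both counts as they were. No gene passed 4-fold in either direction under any scaling or way of summing. No paired analysis was possible because each genotype has 1 library, and no library could be left out. Depth limits XRS2 and RAD50 most, with medians of 8 and 13 reads per inner segment in trf4Δ and 14.1 and 16.1 in wild type.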
